A study of Mus musculus with 48 samples.

Results

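The genes of MHC class I antigen presentation followed here in sorted mouse islet cells were B2m, H2-K1, H2-D1, H2-T23, Tap1, Tap2, Tapbp, Psmb8, Psmb9 and Nlrc5. They were taken by gene symbol, and 10 of the 42713 genes in the count tables carry these names. Class I molecules show peptides of a cell's own proteins to CD8 T cells, and in autoimmune diabetes β cells are killed through this display. A heavy chain (H2-K1 and H2-D1, the classical ones, and H2-T23, the non-classical Qa-1) folds with the light chain β2-microglobulin (B2m). Psmb8 and Psmb9 are the inducible catalytic subunits of the immunoproteasome, Tap1 and Tap2 form the peptide transporter into the endoplasmic reticulum, Tapbp (tapasin) holds empty class I molecules at that transporter, and Nlrc5 is the transcriptional coactivator of the class I genes. Interferons raise most of these genes in many cell types.

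α and β cells were sorted by fluorescence from the islets of male mice aged 6 to 8 weeks. Every group carries the same alleles: the reporters proGcg-Venus for α and RIP-Cherry for β cells, the clock reporter PER2::Luc, and Insulin-rtTA with TET-DTA. In these mice doxycycline (DOX) turns on diphtheria toxin A from the insulin promoter in β cells. DOX animals drank 300 mg of the drug in water with 2% sucrose, and control animals drank water with 2% sucrose alone. All were kept in 12 h of light and 12 h of dark with food at night for 10 days, some on a light cycle inverted for 2 weeks, and cells were taken at zeitgeber times (ZT, hours after lights on) 0, 4, 8, 12, 16 and 20. Animals lacking the toxin transgenes are not among the groups, so the drug's own effect and that of killing β cells cannot be told apart. β cells from DOX animals are those that remained to be sorted. The labels speak of duplicates and not of separate animals, so p-values measure the spread between these libraries.

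The 48 libraries make 24 groups of 2, or 12 for each of DOX β, control β, DOX α and control α cells. Dates in the titles divide them into an earlier run with 5 libraries per condition (replicate 1 of ZT4 to ZT20) and a later run with 7 (replicate 2 of every time and both ZT0 libraries). Total estimated counts were 16.1 to 28.6 M (M for mega) per library in the earlier run and 37.4 to 69.9 M in the later. Run, replicate number and depth therefore cannot be told apart at 5 of the 6 times. The sorts carried their markers: Ins2 took 16.5 to 23.6% of the counts in DOX β cells and 17.5 to 26.4% in control β cells, and Gcg took 24.8 to 39.6% in DOX α cells and 25.8 to 36.0% in control α cells. Gcg stayed at or under 0.0439% in β cells, and Ins2 at or under 0.274% in α cells. Both genes leave other cell types unmeasured. The α libraries also carried markers of δ and PP cells, given below with those of acinar cells.

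On GRCm38, B2m lies at chr2:122147686-122153083 (plus strand, ENSMUSG00000060802.8) and Nlrc5 at chr8:94434356-94527272 (plus strand, ENSMUSG00000074151.13). The other 8 genes lie on chromosome 17, in the major histocompatibility region. H2-K1 (ENSMUSG00000061232.15) is at chr17:33996017-34000333 on the minus strand, H2-D1 (ENSMUSG00000073411.11) at chr17:35262730-35267499 on the plus strand and H2-T23 (ENSMUSG00000067212.8) at chr17:36029773-36032855 on the minus strand. Psmb9 (chr17:34181988-34187764, minus strand), Tap1 (chr17:34187553-34197225), Psmb8 (chr17:34197721-34201454) and Tap2 (chr17:34203527-34216321, these 3 on the plus strand) follow each other within 34334 bases, and Tapbp is at chr17:33915899-33929288 on the plus strand. Psmb9 and Tap1 overlap by 212 bases on opposite strands, and the library kit does not mark strand, so reads from the overlap could be counted for either gene. Classical heavy chain genes are near-identical in long stretches, and how shared reads were assigned is not given in the sources used here, so the levels of H2-K1, H2-D1 and H2-T23 are uncertain to that extent.

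RefSeq promoter windows of GRCm38.p6 were found for 8 of the 10 genes, with none for Tap2 or Nlrc5. Stretches of those of B2m, H2-K1 and H2-D1 are shown. They were chosen because they carry promoter elements through which interferon and NF-kB are known to act on class I genes. The elements through which Nlrc5 is known to act are in those of B2m and H2-K1, and the shorter one of H2-D1 leaves them out. The stretches run 5′ to 3′ on the gene's strand at chr2:122147537-122147656 (B2m, plus strand, 150 to 31 bases before its start), chr17:34000358-34000477 (H2-K1, minus strand, 130 to 11 bases before) and chr17:35262923-35262952 (H2-D1, plus strand, 171 to 142 bases before its RefSeq start). The stretch of H2-D1 lies inside the first exon of another annotation, GENCODE M21. Capitals mark matches on either strand to an interferon response element (GAAA, any 2 bases, GAAA in B2m; GAA, any 2 bases, GAAA in H2-K1 and H2-D1), an NF-kB-type site (GGG, any 2 bases, TT, any base, CC), a CRE-like core (TGACG) and a Y box (CCAAT).
B2m: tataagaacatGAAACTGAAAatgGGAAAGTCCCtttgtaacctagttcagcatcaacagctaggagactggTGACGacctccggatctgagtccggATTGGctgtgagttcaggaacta
H2-K1: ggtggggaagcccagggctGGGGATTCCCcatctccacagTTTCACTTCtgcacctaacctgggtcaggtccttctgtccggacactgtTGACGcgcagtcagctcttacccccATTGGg
H2-D1: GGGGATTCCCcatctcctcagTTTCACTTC

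The heavy chain stretches from the NF-kB-type site to the interferon element matched at 29 of 30 bases, or 96.7%. B2m holds both elements in the other order. Among 32851 windows of 250 bases before a start, the longer interferon element was found in 2.98% and the shorter one in 6.31%. A gene can have more than 1 window, as H2-K1 has, and the class I counts below take the first window of each gene. The NF-kB-type letters were found in 4.11%, TGACG in 17.8% and CCAAT in 33.8%. Of the 8 class I windows, 2 held the longer interferon element (B2m and H2-T23), 2 held the shorter one (H2-K1 and H2-D1), 3 held the NF-kB-type site, 5 held TGACG and 7 held CCAAT. The windows of Tap1 and Psmb9 overlap by 225 bases on opposite strands, and their TGACG and CCAAT matches are the same 2 sites counted for both genes. The motifs were chosen with these windows in view, so the counts are a description.

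Per length, the classical heavy chains were the most abundant of the 10 transcripts in control cells, and Nlrc5 was the least abundant. In control β cells the median RPKM (reads scaled to transcript length and library, n = 12) was 93.7 for H2-D1, 85.8 for H2-K1, 52.8 for Tapbp, 41.5 for B2m, 9.13 for Tap2 and 6.77 for H2-T23. Psmb8 followed at 2.21, Tap1 at 1.93, Psmb9 at 1.58 and Nlrc5 at 0.0408. In DOX β cells the median RPKM of B2m was 121, above H2-K1 at 92.4 and below H2-D1 at 140. DOX α cells had B2m on top, with a median of 151 RPKM, next to 148 for H2-D1 and 93.5 for H2-K1, whereas control α cells had 62.8 for B2m, 124 for H2-D1 and 86.5 for H2-K1. In α cells H2-T23 had a median of 19.5 RPKM with DOX and 17.1 RPKM in controls, above Tap2 at 10.4 and 9.35 RPKM. RPKM was scaled by the authors run by run, and with DOX the order differed between the runs. DOX β cells had medians of 291 RPKM for B2m, 201 for H2-D1 and 147 for H2-K1 in the earlier run, and of 67.2, 114 and 59.2 RPKM for the same genes in the later run. In DOX α cells they were 545, 253 and 159 RPKM in the earlier run and 118, 135 and 83.2 RPKM in the later run, so that B2m stood on top in the earlier run and below H2-D1 in the later one in both cell types. These levels serve to order genes only. All comparisons below use CPM (library-scaled counts, with TMM factors) and edgeR's quasi-likelihood test with Benjamini-Hochberg adjustment over all genes tested.

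**Figure D1:**
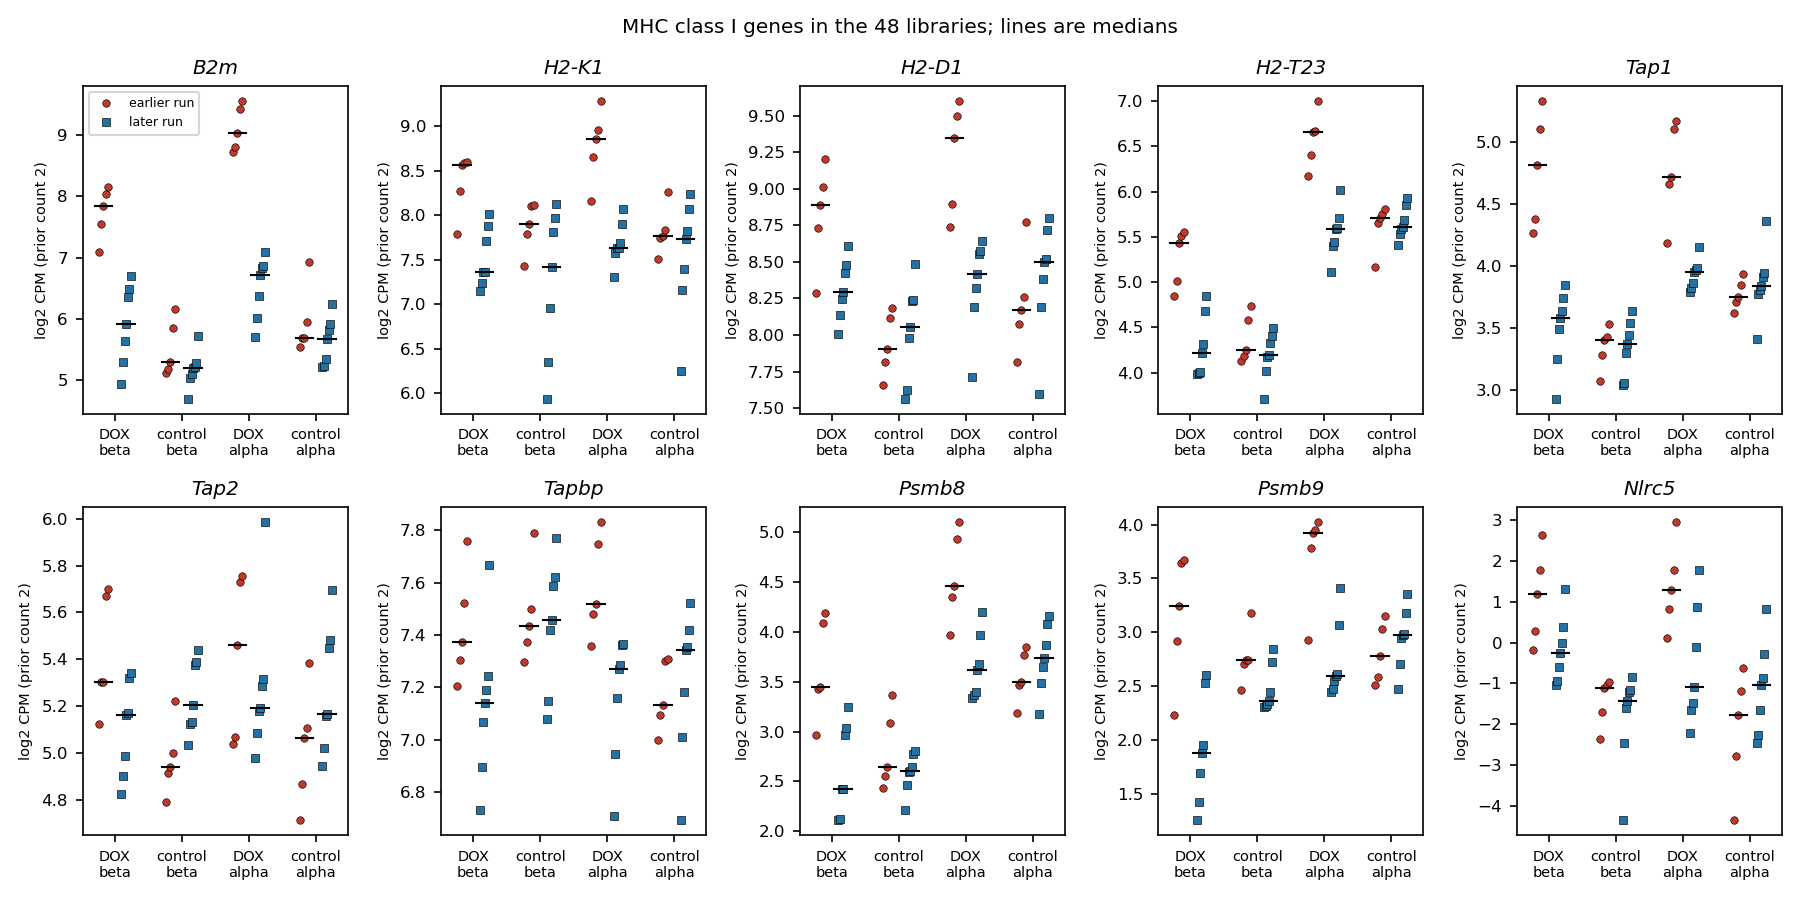
Log2 CPM (prior count 2) of the 10 class I genes in every library, with DOX left of control in each cell type and the sequencing runs marked apart. B2m of the earlier run reaches 136 to 284 CPM in DOX β cells, against 34.9 to 71.8 CPM in control β cells.

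In β cells DOX went with more RNA for the light chain and for some, not all, other parts of the pathway. B2m was 2.62-fold higher, with a log2 fold change of 1.39 ± 0.23 (SE, n = 12 per group, adjusted p = 5.19e-05), and was higher in 11 of the 12 pairs of the same time and replicate number. Of the 10 genes 5 rose and 0 fell, in a comparison where 46.9% of 15188 genes were called (23.8% higher, 23.1% lower). The other rises were H2-D1 by 0.57 ± 0.11 (adjusted p = 0.000190), H2-T23 by 0.47 ± 0.16 (0.0173), Tap1 by 0.73 ± 0.19 (0.00396) and Nlrc5 by 2.21 ± 0.49 (0.000866). Nlrc5 is counted with a limit: taken alone, DOX β cells passed the filter on low counts for it and control β cells did not. The median over the 10 genes was 0.45, against -0.01 over all genes tested. The share called in either direction is close to that of all genes.

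B2m is given in full because its change was the best resolved. In the earlier run DOX β cells had 263, 187, 229, 136 and 284 CPM at ZT4, ZT8, ZT12, ZT16 and ZT20, against 36.4, 57.6, 34.9, 39.4 and 71.8 CPM in control β cells. In the later run DOX β cells ranged from 30.5 to 104 CPM with a median of 60.3 (n = 7), against 26.0 to 52.9 CPM with a median of 36.6 in control β cells (n = 7). The groups did not overlap in the earlier run and overlapped in the later one. Within the earlier run the log2 fold change was 2.25 ± 0.25 (adjusted p = 5.46e-06), and within the later run it was 0.78 ± 0.20 (adjusted p = 0.00714).

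The log2 fold changes of the heavy chains were smaller than that of B2m, a difference between genes that was not tested. H2-D1 had 516, 426, 474, 312 and 589 CPM in the DOX β libraries of the earlier run, against 240, 291, 202, 225 and 278 CPM in controls of that run. Later libraries ranged from 257 to 391 CPM with DOX and from 189 to 358 CPM in controls. H2-D1 thus separated the groups in the earlier run alone, with log2 fold changes of 0.93 ± 0.13 in that run and 0.31 in the later one (adjusted p = 4.20e-05 and 0.0359). H2-K1, the other classical chain, was not called over both runs at 0.39 ± 0.17 (adjusted p = 0.0620). Its values were 387, 386, 379, 309 and 221 CPM in DOX β cells of the earlier run, against 277, 240, 275, 222 and 173 CPM in control β cells, and these overlap. H2-T23, whose product Qa-1 is read by receptors of natural killer cells, had 43.3, 28.8, 45.5, 32.2 and 46.9 CPM in DOX β cells of the earlier run, against 17.5, 23.9, 26.6, 18.9 and 18.2 CPM in controls. Its medians in the later run were 18.5 CPM with DOX and 18.3 CPM in controls.

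Of the transporter and loading genes, Tap1 was called over both runs and Tap2 and Tapbp were not. Tap1 had 28.1, 20.7, 40.2, 19.2 and 34.3 CPM in DOX β cells of the earlier run, against 11.5, 10.7, 8.35, 9.67 and 10.5 CPM in control β cells. No DOX library of that run fell within the range of the controls, and the later run had 7.57 to 14.3 CPM with DOX and 8.16 to 12.4 CPM in controls. Within the earlier run Tap1 was higher by a log2 fold change of 1.53 ± 0.20 (adjusted p = 2.36e-05) and Tap2 by 0.50 (0.00200). Over both runs Tap2 was not called at 0.13 (0.263). Tapbp was not called over both runs at -0.17 (0.112) and was lower in the later run at -0.29 (0.0465), with 106 to 203 CPM in DOX β cells and 135 to 218 CPM in controls. Whether Tap1 and Tap2 differed from each other in their change was not tested.

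The immunoproteasome subunits did not pass over both runs, with log2 fold changes of 0.42 ± 0.17 for Psmb8 (adjusted p = 0.0517) and -0.12 for Psmb9 (0.649). Psmb8 had 10.9, 10.7, 18.2, 7.78 and 16.9 CPM in DOX β cells of the earlier run, against 8.46, 10.3, 6.20, 5.35 and 5.83 CPM in control β cells, a difference of 0.90 within that run (0.00784). Psmb9 had 4.63 to 12.7 CPM there with DOX and 5.48 to 8.98 CPM in controls. The later medians were 3.61 CPM with DOX and 5.09 CPM in controls. That difference in the later run was -0.54 and was not called (adjusted p = 0.0658).

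Nlrc5 was scarce in every library, with 0 to 146 estimated counts. With each condition taken alone, it passed the filter on low counts in DOX β cells only. Its place in the β tests thus leaned on the group in which it was higher. In the earlier run DOX β cells had 2.22, 1.18, 3.40, 0.834 and 6.13 CPM, against 0.145, 0.463, 0.258, 0.411 and 0.435 CPM in control β cells. All 5 DOX libraries lay above all 5 controls. In the later run the medians were 0.788 CPM with DOX and 0.323 CPM in controls, where 1 library had a count of 0 (log2 fold change 1.64, adjusted p = 0.0461).

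Within the earlier run 7 of the 10 genes were called higher in DOX β cells (16.6% of all genes), with a median log2 fold change of 0.92. Within the later run 3 were called higher (B2m, H2-D1 and Nlrc5) and 1 lower (Tapbp), against 16.7% and 13.7% of all genes, and the median was 0.16. Fitted on the later libraries alone, B2m was the 1 gene called, with H2-D1 at 0.31 (adjusted p = 0.0507) and Nlrc5 at 1.68 (0.0934), in a fit that called 3747 of 15282 genes (24.5%). B2m, H2-D1, H2-T23, Tap1 and Nlrc5, 5 of the 10, did not overlap between DOX and control β cells in the earlier run (7.24% of genes). None of the 10 was without overlap in the later run (3.04% of genes).

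Macrophage markers were higher in DOX β libraries too. All 15 of the listed markers were called higher, where 23.8% of all genes were. Their summed CPM was 90.5 to 1542 (median 503) in DOX β cells and 42.3 to 294 (median 125) in control β cells. Adgre1, which encodes the macrophage surface protein F4/80, had 1.97 to 46.0 CPM in DOX β cells and 0.517 to 7.91 CPM in control β cells. Macrophages themselves carry class I molecules, and in bulk samples fewer cells of a type and less RNA per cell cannot be told apart. With the mean log2 level of the markers as a term, none of the 5 calls was kept. That fit called 4051 of 15188 genes (26.7%), against 46.9% without the term, so calls were lost over all genes too. The log2 fold change of B2m was then 0.88 (adjusted p = 0.0655), that of H2-D1 0.42 (0.0761), H2-T23 0.36 (0.321), Tap1 0.36 (0.411) and Nlrc5 0.85 (0.372).

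The marker sums overlapped between the runs, and their DOX effect was called different between the runs for 0 of 15 markers (median difference -0.16). In β cells that test called 0.0461% of all genes and none of the class I genes. It therefore cannot show that the DOX effect on the markers was the same in both runs. In DOX β cells the sums were 201 to 837 CPM (median 514) in the earlier run and 90.5 to 1542 CPM (median 492) in the later run. Class II genes, which macrophages and dendritic cells use for display to CD4 T cells, summed to 183 to 791 CPM in DOX β cells of the earlier run and 76.2 to 674 CPM in those of the later run, against 23.4 to 206 CPM over all control β libraries. Markers of other cells moved with DOX in β libraries as well. The stellate cell markers summed to 31.3 to 373 CPM (median 53.2) in DOX β cells of the earlier run and 1.12 to 61.8 CPM (median 9.10) in those of the later run, against 8.02 to 30.3 CPM and 0.435 to 51.6 CPM in control β cells of the same runs. In the earlier run 3 of 7 were called higher, where 16.6% of all genes were, with a median log2 fold change of 2.18. The α cell markers summed to 2152 to 3643 CPM in DOX β cells of the earlier run and 1421 to 2566 CPM in those of the later run, against 627 to 844 CPM and 346 to 829 CPM in control β cells, with no overlap between DOX and control. The part of these stellate and α cell markers in the class I differences was not tested. The fit with the marker term used the libraries of both runs. The macrophage markers' part in the class I differences within a single run was not tested.

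In α cells B2m was the single gene of the 10 called over both runs. It was higher with DOX by a log2 fold change of 1.81 ± 0.31 (SE, n = 12 per group, adjusted p = 0.0178) and higher in 12 of 12 pairs, in a comparison that called 0.127% of 14932 genes (19 genes, with 0.0804% higher). In the earlier run DOX α cells had 686, 445, 749, 524 and 419 CPM of B2m, against 46.5, 61.8, 51.8, 51.7 and 122 CPM in control α cells. In the later run DOX α cells had 52.4 to 136 CPM (median 105) and control α cells 37.4 to 75.8 CPM (median 50.9). Every DOX library of the earlier run stood above every other α library. Leaving out any 1 of the 24 libraries kept the call of B2m, with adjusted p between 0.0104 and 0.0470, while the count over all genes lay between 9 (without the replicate 2 control of ZT12) and 35 (without the replicate 2 DOX library of ZT12). Within the later run it was not called, at 0.91 ± 0.23 (adjusted p = 0.474).

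**Figure D2:**
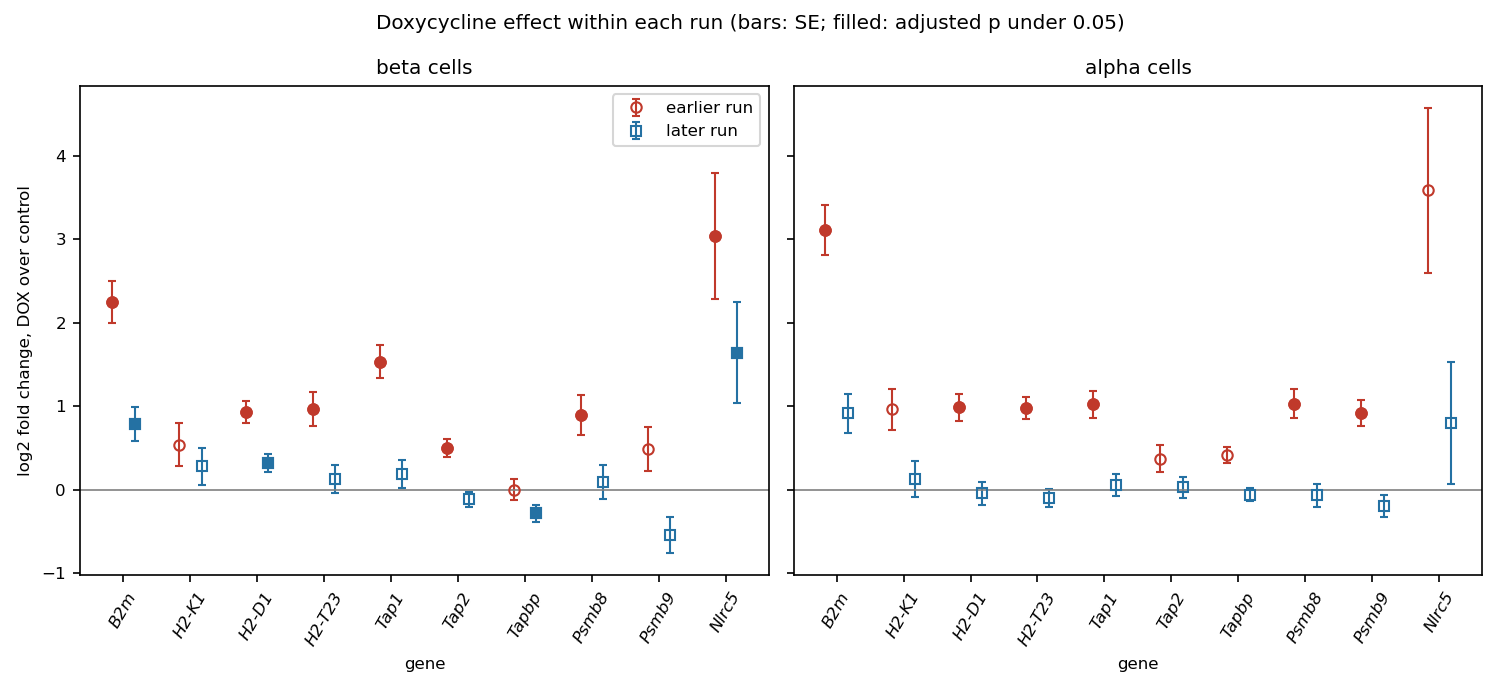
Log2 fold change of DOX over control (SE bars) for each of the 10 genes, in β and α cells, within the earlier and within the later run. In α cells B2m stands at 3.12 ± 0.30 within the earlier run and at 0.91 ± 0.23 within the later.

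Within the earlier run 6 of the 10 genes were called higher in DOX α cells, where 0.489% of all genes were. B2m was higher by 3.12 ± 0.30 (adjusted p = 1.43e-05), Psmb8 by 1.03 (0.00315), Tap1 by 1.02 (0.00185), H2-D1 by 0.99 (0.00302), H2-T23 by 0.98 (0.000478) and Psmb9 by 0.92 (0.00502). The 6 include both immunoproteasome subunits, a transporter subunit, heavy chains and the light chain. H2-K1 at 0.96 (0.125), Tapbp at 0.41 (0.0520), Tap2 at 0.37 (0.665) and Nlrc5 at 3.59 ± 0.99 (0.171) were not called. Within the later run 0 of the 10 were called, in a comparison that called 1 gene (0.00670%), and their log2 fold changes ran from -0.20 to 0.91.

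The values per library show the same split. H2-D1 had 777, 428, 652, 478 and 722 CPM in DOX α cells of the earlier run, against 226, 306, 269, 289 and 438 CPM in controls. H2-T23 had 102, 72.2, 128, 84.6 and 101 CPM with DOX, against 35.8, 55.9, 54.0, 50.4 and 52.2 CPM in control α cells of that run. The groups overlapped for H2-D1 by 1 control and did not for H2-T23. Psmb8 had 22, 20.4, 34.3, 15.6 and 30.6 CPM with DOX, against 11.2, 14.4, 13.6, 9.07 and 11 CPM in controls, and Tap1 had 18.1 to 36.0 CPM with DOX and 12.3 to 15.2 CPM in controls. In all, 6 of the 10 genes did not overlap between DOX and control α cells of the earlier run (1.02% of genes), namely B2m, H2-T23, Tap1, Tapbp, Psmb8 and Nlrc5. In the later run 0 did (0.0201% of genes), with medians of 48 CPM in DOX and 48.6 CPM in control α cells for H2-T23 and of 342 and 362 CPM for H2-D1.

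The genes not called there, and Psmb9, had the following values. H2-K1 had 496, 405, 625, 463 and 287 CPM in DOX α cells of the earlier run, against 218, 214, 308, 228 and 183 CPM in control α cells, and 1 control lay above the lowest DOX library. Tapbp had 183, 178, 228, 164 and 215 CPM with DOX, against 128, 158, 158, 137 and 140 CPM in controls. Nlrc5 had 2.40, 1.71, 3.40, 1.03 and 7.67 CPM with DOX, against at most 0.603 CPM in the controls of that run, 1 of which had a count of 0. All DOX libraries thus lay above all controls for Tapbp and Nlrc5. Psmb9 had 15.1, 13.7, 16.2, 7.58 and 15.4 CPM with DOX, against 6.82, 8.10, 8.82, 5.64 and 5.96 CPM in controls, where the ZT16 library with DOX fell among the controls. Tap2 overlapped as well, with 32.7 to 53.9 CPM in DOX α cells and 26.2 to 41.6 CPM in controls. Fitted on the libraries of the earlier run alone, with their own estimate of the spread, 9 of the 10 genes were called in α cells, H2-K1 at 0.96 (adjusted p = 9.26e-05), Tapbp at 0.42 (0.0169) and Nlrc5 at 3.27 (0.0199) among them, and 8 of the 10 in β cells, with H2-K1 at 0.55 (0.000920). Those fits called 132 of 14003 genes in α cells (0.943%) and 4638 of 14313 in β cells (32.4%).

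Macrophage markers were low in α cells. Their sum was 59.2 to 88.3 CPM (median 75.4) in DOX α cells and 41.5 to 135 CPM (median 68.9) in control α cells. Of the 12 markers tested 0 were called, where 0.127% of all genes were. Adgre1 had 0 to 1.04 CPM in DOX α cells and 0 to 1.08 CPM in control α cells. In the earlier run alone, where the class I differences were called, the macrophage sum was 67.2 to 88.2 CPM (median 84.7) in DOX α cells and 60.6 to 84.5 CPM (median 66.5) in control α cells. There the median log2 fold change of the 12 markers was 0.94, and 0 were called, where 0.489% of all genes were called higher. The class II genes summed to 13 to 78.7 CPM (median 48.8) with DOX and 6.13 to 28.9 CPM (median 18.9) in controls of that run, and the lymphocyte markers to 10.2 to 43.9 CPM (median 13) with DOX and 8.20 to 22.8 CPM (median 9.80) in controls. The median log2 fold change was 1.65 for class II and 1.21 for the lymphocyte markers, with 0 of the 5 genes tested in each list called, and their part in the class I differences was not tested. Cd68, a lysosomal protein of macrophages, and the integrin gene Itgam had at most 1.06 and 0.814 CPM in DOX α cells. With the marker term the log2 fold change of B2m in α cells was 1.72, and it was no longer called (adjusted p = 0.137, 0 genes called in all). The δ and PP cell markers summed to 32175 to 57497 CPM in DOX α cells and 21515 to 48469 CPM in control α cells. The acinar markers had medians of 31.8 CPM in DOX α cells of the earlier run and 787 CPM in those of the later run. Control α cells of the same runs had medians of 81.4 and 195 CPM. The part of these markers in the class I differences was not tested.

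Whether the DOX effect differed between the runs was tested directly. In α cells it was larger in the earlier run by 2.20 ± 0.37 log2 units for B2m (adjusted p = 0.0163), 1.08 ± 0.17 for H2-T23 (0.00926) and 1.11 ± 0.21 for Psmb9 (0.0393). These 3 of the 10 genes stand in a comparison that called 0.114% of genes (17 genes, with 0.107% larger in the earlier run). Psmb8 at 1.10 (0.0557), H2-D1 at 1.03 (0.0616) and Tap1 at 0.97 (0.0859) were not called. Leaving out each of the 24 libraries in turn, H2-T23 stayed called in all 24 fits, B2m in 20 and Psmb9 in 7 (adjusted p 0.0568 to 0.129 in the other 17). The call of B2m ended without the replicate 1 control of ZT4, ZT12 or ZT16 or the replicate 1 DOX library of ZT4 (adjusted p 0.0503 to 0.0749). Without the ZT0 libraries, an alternative chosen after seeing the data, B2m alone was still called, with adjusted p of 0.0724 for H2-T23 and 0.158 for Psmb9.

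In β cells none of the 10 passed this test by edgeR (0.0461% of genes, 7 genes). B2m was larger in the earlier run by 1.47 ± 0.32 (adjusted p = 0.114) and Tap1 by 1.35 ± 0.26 (0.0724). With no filter on low counts 2 of the 10 were called, where 33 of 25022 genes were (0.132%), and DESeq2 called 4, where 87 of 15188 were (0.573%).

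Differences between the runs were called within DOX libraries. There, 7 of the 10 genes were higher in the earlier DOX β libraries (5.49% of genes) and 8 in the earlier DOX α libraries (7.02% of genes). The differences of B2m were 1.70 in β and 2.50 in α cells, and those of H2-K1 0.99 and 1.15. In controls 0 of the 10 were called different between the runs. Of all genes 1.99% were higher and 2.55% lower in β cells of the earlier run, and 2.41% and 2.59% in α cells. H2-K1 still stood at 0.73 ± 0.25 in control β cells (adjusted p = 0.0969) and at 0.32 in control α cells (0.494). Its DOX effect in β cells differed between the runs by 0.26 ± 0.34 and was not called (0.989). With that spread the test cannot show whether its run difference was the same in DOX and control libraries. Of the 10 genes 3 had every earlier DOX β library above every later one (1.36% of genes; B2m, H2-T23 and Tap1), and 5 did in DOX α cells (1.61%; those 3 with H2-K1 and H2-D1).

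**Figure D3:**
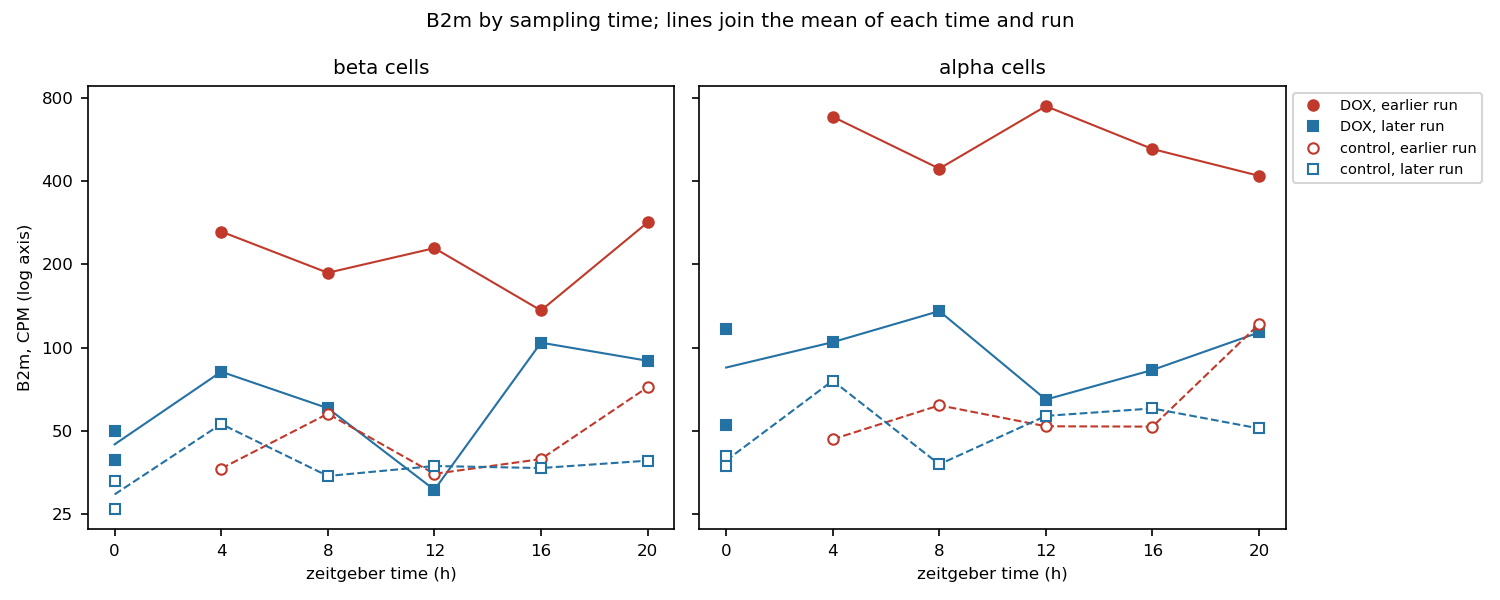
B2m in CPM (log axis) against zeitgeber time, in β and α cells, with DOX and control libraries and both runs marked. At ZT4 to ZT20 the earlier DOX libraries lie above the later DOX libraries of the same cell type, and at ZT0, where both libraries belong to the later run, DOX β cells have 49.9 and 39.3 CPM.

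Whether the DOX effect differed between the cell types was tested over all 48 libraries. Without pairs in the fit 0 of the 10 passed, where 25.5% of genes did. The difference (β minus α) was -0.43 for B2m (adjusted p = 0.465), -0.39 for Psmb9 (0.293) and -0.32 ± 0.12 for Tapbp (0.0502). DOX β and DOX α libraries of the same time and number deviated together. With the pair as a block 3 of the 10 were called, Tapbp (-0.32, adjusted p = 0.000892), Psmb9 (-0.42, 0.0253) and Tap1 (0.25, 0.0416), in a fit that called 5125 of 16207 genes (31.6%). That share of the 10 is close to that of all genes.

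Most of the class I genes were lower in control β than in control α cells. Of the 10 genes 6 were lower in β cells and 1 was higher, in a comparison that called 71.4% of genes (37.3% lower, 34.2% higher). H2-T23 was lower by a log2 fold change of -1.41 (adjusted p = 3.47e-12), with 13.1 to 26.6 CPM in control β and 35.8 to 60.9 CPM in control α cells. Psmb8 stood at -1.03, Tap1 at -0.53, B2m at -0.50, H2-D1 at -0.38 and Psmb9 at -0.33. Tapbp was higher at 0.22, and H2-K1 was not called at -0.20 (adjusted p = 0.251). The share called is close to that of all genes.

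With DOX, 4 of the 10 were lower in β than in α cells, in a comparison that called 71.2% of genes (35.7% lower): H2-T23 at -1.26, Psmb8 at -0.96, B2m at -0.92 ± 0.21 (adjusted p = 0.000475) and Psmb9 at -0.69. H2-K1 at -0.26 (0.0509) and Tap1 at -0.22 (0.145) were not called, and both were with the pair as a block, at -0.25 (0.00984) and -0.24 (0.0218). B2m was higher in the β library in 1 of the 24 pairs of the same time, treatment and number.

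The classical heavy chains varied between libraries in a way that β and α cells shared. The ratio of H2-K1 to H2-D1 in CPM ran from 0.375 to 0.990 in DOX β cells (median 0.680) and from 0.204 to 1.48 in control β cells (median 0.885). In DOX α cells it ran from 0.397 to 0.987 (median 0.658), and in control α cells from 0.208 to 1.14 (median 0.745). The ratio in the β library lay within 1.5 times of that in the α library of the same time, treatment and number in 23 of 24 pairs, with quotients of 0.636 to 1.49. The α and β libraries of such a pair share run, time, treatment and number, and the labels do not say whether they share animals.

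**Figure D4:**
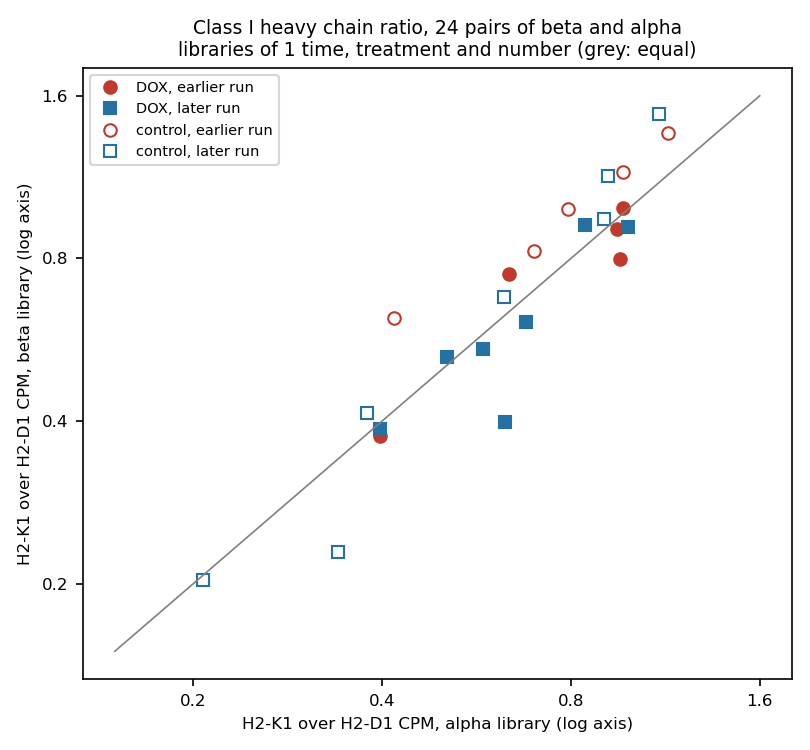
Ratio of H2-K1 to H2-D1 (CPM over CPM, log axes) in the β library against that in the α library of the same time, treatment and number, 24 pairs. The lowest pair is the replicate 2 control of ZT8, at 0.204 in β and 0.208 in α cells.

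That lowest pair had 61.4 CPM of H2-K1 in β and 76.2 CPM in α cells, while H2-D1 stood at 302 and 367 CPM, inside the range of the other libraries. The replicate 2 control pair of ZT20 was low as well, with 81.9 CPM of H2-K1 in β and 143 CPM in α cells. Of the 5 lowest ratios in β cells and the 5 lowest in α cells, 4 came from the same pairs. H2-K1 was above H2-D1 in 4 β and 2 α libraries. The highest library had 6.30 times the H2-K1 of the lowest in β cells and 8.20 times in α cells, next to 3.11 and 4.03 times for H2-D1.

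No daily rhythm of a class I gene passed the test. A cosine of 24 h was called for 0 of the 10 genes in DOX β cells (11.6% of genes were), and for 0 of the 9 tested in control β (2.17%), DOX α (2.82%) and control α cells (4.49%). The gene left out there was Nlrc5, which did not pass the filter on low counts. Before adjustment 1 gene was under 0.05 in control β cells by edgeR (Psmb8, adjusted p = 0.158), and 3 were in control α cells (H2-T23, adjusted p = 0.0975, Psmb8, 0.180, and Psmb9, 0.184). DESeq2 called H2-T23 in control α cells (adjusted p = 0.0354), the only one of the 10 it called in the 4 conditions. Its fitted amplitude was 0.21 log2 units with a peak 13.6 h after lights on.

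Other genes of the pathway were listed apart, with earlier results of these data known. Of 19 tested in β cells, 9 were higher with DOX and 2 lower (median 0.28), where 23.8% of all genes were higher and 23.1% lower. H2-T22, a non-classical heavy chain, was higher by 0.50 ± 0.08 (adjusted p = 4.83e-05), and Tapbpl, the tapasin-related editor of peptides, by 0.56 ± 0.10 (9.77e-05). Erap1, which trims peptides in the endoplasmic reticulum, was lower by -0.30 ± 0.06 (0.000358). In α cells of the earlier run 3 of 20 were higher (H2-Q4 0.80, H2-Q6 2.71 and H2-T22 0.44) and 0 lower, where 0.489% of all genes were higher. H2-Q6 shares long stretches with its neighbours in the Q cluster, so its count is uncertain. The 14 listed subunits of the standard proteasome had log2 fold changes from 0.01 to 0.26 in β cells. Of these, 5 were called higher and 0 lower, where 23.8% of all genes were higher and 23.1% lower. Psmb5 and Psmb6, the constitutive subunits that Psmb8 and Psmb9 replace, were higher by 0.26 and 0.24. In α cells of the earlier run 0 of the 14 were called, with a range from -0.05 to 0.16.

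Among 18 regulators and receptors, 6 were higher and 3 lower in DOX β cells, where 23.8% of all genes were higher and 23.1% lower. Ifnar2, a chain of the type I interferon receptor, was higher by 0.70 ± 0.07 (adjusted p = 3.75e-07) and Ifngr2, a chain of the interferon gamma receptor, by 0.52 ± 0.09 (8.32e-05). Jak1, the kinase that both receptors use, was lower by -0.57 ± 0.06 (6.70e-07). These 3 were at 0.10, 0.04 and -0.07 in α cells, with a tested difference between the cell types of 0.58 for Ifnar2, 0.47 for Ifngr2 and -0.51 for Jak1 (adjusted p = 6.40e-05, 0.00755 and 6.85e-06). That comparison called 25.5% of all genes. The 3 were named for their low p in β cells, and the same β libraries enter the difference, so the choice favours a call.

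Interferon response genes were also higher in the DOX libraries of the earlier run. The summed CPM of 16 genes of the type I response was 168 to 359 in DOX β cells of the earlier run and 52.8 to 93.9 in those of the later run, against 56.0 to 96.0 over all control β cells. In DOX α cells it was 254 to 513 in the earlier run and 119 to 190 in the later run, against 103 to 177 in control α cells. All 15 tested were higher in β cells of the earlier run and 13 of 14 in α cells, where 16.6% and 0.489% of all genes were. In the later run 3 of 15 were higher in β cells, close to the 16.7% of all genes. There 0 of 14 were higher in α cells, where 0.00670% of all genes were called. The difference between the runs itself was called for 2 of the 15 in β and 4 of the 14 in α cells, against 0.0461% and 0.114% of all genes. The listed genes of the interferon gamma response summed to 112 to 331 CPM (median 126) in DOX β cells of the earlier run and 30.4 to 69.5 CPM (median 45.5) in those of the later run, against 38.3 to 59.6 CPM over all control β cells. In DOX α cells the sum was 92.8 to 201 CPM (median 114) in the earlier run and 54.4 to 86.6 CPM in the later run, against 49.5 to 69.6 CPM in control α cells. Within the earlier run the test called 10 of 11 of them higher with DOX for β cells, at a median of 2.16 log2 units, and 6 of 10 for α cells, at a median of 1.31. In the later run 3 of 11 were higher and 1 lower in β cells, where 16.7% of all genes were higher and 13.7% lower. In α cells of that run 0 of 10 were called. Irf7, a transcription factor that amplifies the interferon response, was higher by 3.23 ± 0.46 in β and 2.68 ± 0.35 in α cells of the earlier run (adjusted p = 4.57e-05 and 0.000378). The interferon genes themselves, 7 listed, passed the filter in no condition, and the highest value was 0.158 CPM of Ifnb1 in a DOX β library. With the mean level of the response list as a term, the log2 fold change of B2m was 0.55 in β cells (adjusted p = 0.0218) and 0.73 in α cells, where it was not called, and H2-T23 in β cells turned to -0.046 (0.840). In β cells Psmb9 was called lower in that fit at -0.76 (0.00639), and H2-D1 at 0.32 (0.0681), Nlrc5 at 0.98 (0.172) and Tap1 at 0.0081 (0.972) were not called. With that term 4501 of 15188 genes were called in β cells (29.6%) and 0 in α cells. The response genes and B2m were measured in the same libraries.

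**Figure D5:**
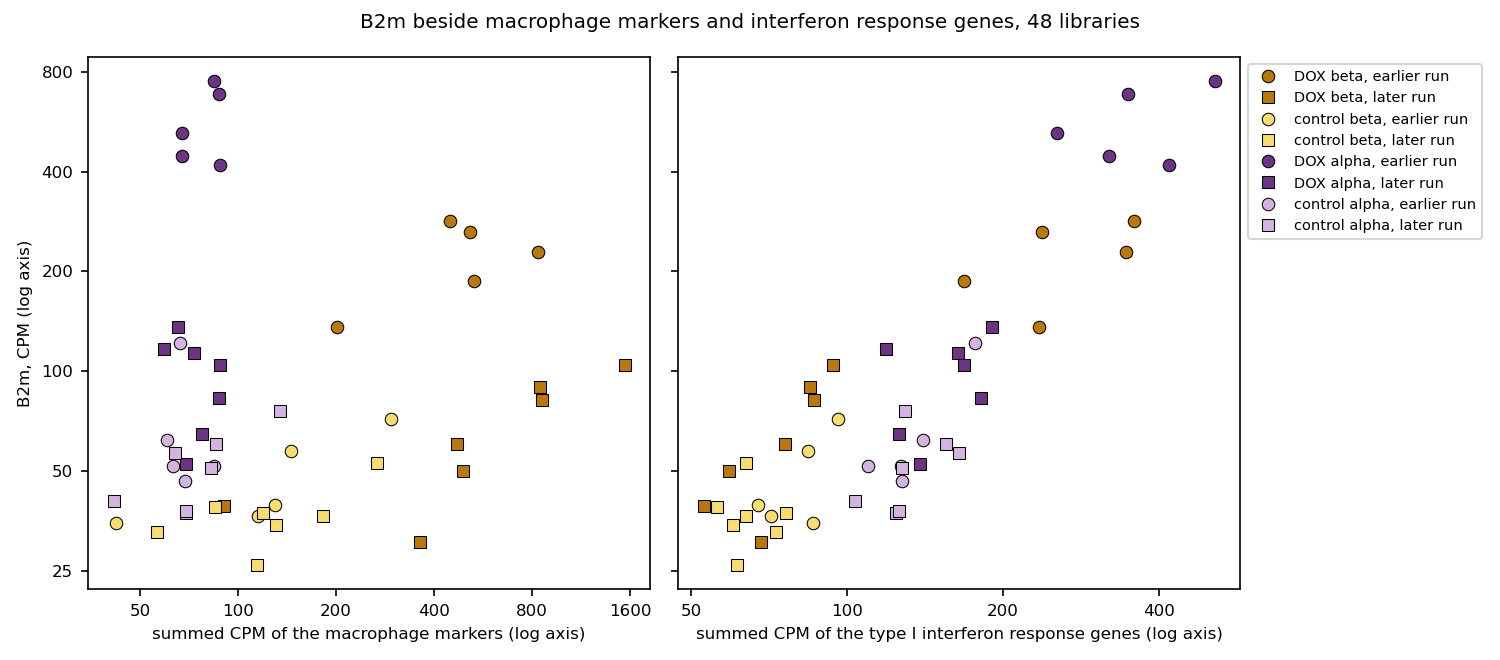
B2m in CPM against the summed CPM of the type I interferon response list and of the macrophage marker list in the same libraries (log axes), β and α cells, DOX and control. In DOX α cells B2m runs from 52.4 to 749 CPM and the macrophage sum from 59.2 to 88.3 CPM.

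Over the 24 β libraries, after time, run and treatment were taken out, the genes most like B2m were the interferon response genes Ifi27 (Pearson r = 0.89), Irf7 (0.88), Gbp3 (0.88), Dhx58 (0.87), Isg15 (0.87), Gbp6 (0.87), Usp18 (0.87) and Ddx60 (0.87). Of the class I genes Tap1 was closest (0.87), then H2-T23 and Psmb8 (0.76 each), Psmb9 (0.75), Tap2 and H2-D1 (0.72 each) and Nlrc5 (0.63). Tapbp (0.34) and H2-K1 (0.26) were the least like it. A DOX effect that differs between the runs remains in these values, and they are descriptions with no test.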

How the data were processed

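PolyA RNA of sorted α and β cells was sequenced from TruSeq v2 libraries. Per the submitters' processing notes, bcl2fastq and STAR were used with GRCm38. The counting program is not given in the sources used here. The authors deposited an estimated count per gene, 1 table per run, and an RPKM per gene scaled within each run. All columns were matched by title, with 0 left over. Low counts were nearly all even, so 1 counted unit adds 2, and halving them was an alternative. Estimated counts were rounded. Genes were kept with filterByExpr of edgeR 4.0.16 (minimum count 10, minimum total count 15), scaled by TMM and tested with the quasi-likelihood test in R 4.3.3 (limma 3.58.1), with time and run as terms and a Benjamini-Hochberg threshold of 0.05. Log2 CPM used a prior count of 2. DESeq2 1.42.0 was an alternative, as were other scaling, no filter, each run alone, no run term, covariates, the replicate block and each library left out. Rhythms were a 24 h cosine. The fits were tested on simulated data.

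The class I genes and all lists were chosen with earlier results of these data known. Named are the 10 class I genes, up to 4 genes of each list by lowest p in a comparison, and the 8 genes most like B2m. Gcg and Ins2 check the sort, and Ifnb1 was named after its value was seen. Replicate numbers paired DOX β with DOX α libraries: all 6 correlations of their deviations were over 0.1 (0.107 to 0.419, median 0.220), and 5 of 6 were in controls. DOX and control libraries were not paired, with 1 of 6 in each cell type. Same-group libraries differed by 18.6 to 88.2 times counting noise (χ² per degree of freedom), so none repeated the counts of another. In most groups the libraries came from different runs. Whether same-group libraries share animals or RNA cannot be told from this measure.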

Additional observations from a re-analysis of the deposited data

Results flagged for a closer look

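In α cells the effect of DOX differed between the sequencing runs for 3 of the 10 genes, by the test of the difference itself (edgeR, earlier minus later run, n = 24 libraries). The difference in log2 fold change was 2.20 for B2m (adjusted p = 0.0163), 1.08 for H2-T23 (adjusted p = 0.00926) and 1.11 for Psmb9 (adjusted p = 0.0393). B2m was higher with DOX in 5 of 5 pairs of the earlier run and in 7 of 7 of the later run. H2-T23 was higher in 5 of 5 and 2 of 7, and Psmb9 in 5 of 5 and 2 of 7. The run goes with replicate number, depth and whatever else differed between the preparations, and their parts were not tested.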

How the results depend on the processing

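Scaling by DESeq2's size factors changed no count of calls by over 1.5 times. DOX in β cells called 7122 genes and 5 of the class I genes, the earlier run alone 4638 and 8, the later run alone 3747 and 1, the macrophage covariate 4051 and 0, and the type I interferon covariate 4501 and 2 (B2m higher and Psmb9 lower). With that last covariate H2-T23 was no longer called, at -0.046 (adjusted p = 0.840). DOX in α cells called 19 and 1, no filter 56, DESeq2 125, no run term 12, the replicate block 7 and 0, the earlier run alone 132 and 9, and the later run alone and either covariate 0 and 0, where 740, 858 and 669 genes had an unadjusted p under 0.05. DOX by cell type called 4126 and 0, no filter and halved counts each 1 class I gene, the replicate block 3, the earlier run alone 2139 and 1, and the later run alone 1243. DOX by run in β cells called 7 and 0, no filter 33 and 2, DESeq2 87 and 4, and the block 4. In α cells it called 17 and 3, no filter 39 and 6, DESeq2 52 and 6, the block 11 and 2, and leaving out ZT0, chosen after seeing the data, 6 and 1. Rhythms by DESeq2 numbered 1317 in control β cells (288 by edgeR), 3014 in DOX β (1576), 1518 in control α (600, with 1 class I gene by DESeq2) and 1178 in DOX α cells (375). In DOX β cells no filter gave 831 and the block 688. The cause of these moves was not tested. Leaving out 1 library in turn gave 6731 to 7207 genes and 5 to 7 class I genes for DOX in β, 9 to 35 and 1 for DOX in α, 3789 to 4289 and 0 to 1 by cell type, 0 to 22 and 0 to 2 by run in β, and 6 to 31 and 1 to 5 by run in α cells. It gave 10511 to 10759 and 7 for β against α cells in controls, 10767 to 11097 and 4 to 7 with DOX, and rhythms of 20 to 893 in control β, 112 to 2317 in DOX β, 179 to 1141 in control α and 41 to 560 in DOX α cells, with 0 class I genes. The replicate block changed no other count by over 1.5 times. DOX and control numbers do not pair the libraries, and with them as a block B2m in α cells stood at 1.79 (adjusted p = 0.0974) and the difference of Psmb9 between the runs at 1.12 (0.0765), both no longer called. Control β and α numbers, with 5 of 6 correlations over 0.1, gave H2-K1 a call at -0.20 (0.0429). Nlrc5 had 0 to 146 estimated counts per library, and its values rest on few reads.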
